A study of Mus musculus with 9 samples.

Results

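Th, the gene of tyrosine hydroxylase, was followed here in the embryonic mouse cortex together with 7 genes of catecholamine synthesis and handling, which are Ddc, Dbh, Slc18a2, Slc6a3, Nr4a2, Gch1 and Maob. The group was chosen by the measured difference of Th in Sfpq-/- embryos, and its members were read from the probe sets that the platform annotation gives to each gene alone. All 8 had a gene level, out of 16854 genes with one. They held 125 probe sets, of which 95 were bright enough to keep, out of 1256831 on the array. A gene level is the mean of the kept log2 signals of a gene, where kept means a mean over the 9 arrays above 5.64, the median of all probe sets.

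RNA of the cerebral cortical region was measured at stage E13.5 on Affymetrix Mouse Exon arrays, with 1 array per sample. There were 3 samples of Sfpq-/- embryos, in which both copies of Sfpq carry the mutation, 3 of Sfpq+/- embryos, which carry 1 mutant copy, and 3 of control embryos, which are wild type. Sfpq encodes a nuclear protein that binds RNA and acts in transcription and splicing. The labels do not give the deleted exons, a Cre driver, the strain or the litters, so p-values measure only the spread between these samples, which may be technical.

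Catecholamines are made from tyrosine. Tyrosine hydroxylase turns it into L-DOPA with tetrahydrobiopterin as cofactor, Ddc removes the carboxyl group to give dopamine, and Dbh turns dopamine into noradrenaline inside vesicles. In the adult brain these amines reach the cortex mainly in axons of midbrain and hindbrain neurons, whose messenger RNA stays largely in their cell bodies outside the cortex.

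The promoters of Th, Slc18a2 and Ddc are shown because Th and Ddc are the members that stood highest against the other embryos, and because Slc18a2 shares with Th a motif of the cyclic AMP pathway. Each sequence, from RefSeq on build GRCm38.p6, holds the 250 bases before an annotated start and the first 10 bases from it, in the direction of transcription. Capitals mark matches, on either strand, to a cyclic AMP response element (TGACGTCA), an AP-1 site (TGANTCA), an NR4A response element (AAAGGTCA) or a TATA box (TATAAA). The Th promoter lies at chr7:142899986-142900245 on the minus strand, the Slc18a2 promoter at chr19:59260628-59260887 on the plus strand, and the promoters of both Ddc starts at chr11:11898135-11898394 and chr11:11890399-11890658 on the minus strand.
Th: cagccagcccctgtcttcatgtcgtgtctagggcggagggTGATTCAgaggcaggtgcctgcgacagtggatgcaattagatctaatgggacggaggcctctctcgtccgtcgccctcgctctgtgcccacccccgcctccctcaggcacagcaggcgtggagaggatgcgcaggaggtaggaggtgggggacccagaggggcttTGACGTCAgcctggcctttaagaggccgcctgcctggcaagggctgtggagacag
Slc18a2: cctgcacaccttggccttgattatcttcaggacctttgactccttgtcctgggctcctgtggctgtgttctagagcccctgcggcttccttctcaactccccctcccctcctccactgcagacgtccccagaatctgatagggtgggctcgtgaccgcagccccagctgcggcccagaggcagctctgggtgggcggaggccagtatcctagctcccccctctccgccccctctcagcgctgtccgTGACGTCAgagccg
Ddc, first start: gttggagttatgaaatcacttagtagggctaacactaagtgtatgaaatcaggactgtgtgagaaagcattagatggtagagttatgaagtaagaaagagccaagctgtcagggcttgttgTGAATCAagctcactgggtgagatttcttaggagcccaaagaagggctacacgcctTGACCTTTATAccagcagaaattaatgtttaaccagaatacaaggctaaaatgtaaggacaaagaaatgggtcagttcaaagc
Ddc, second start: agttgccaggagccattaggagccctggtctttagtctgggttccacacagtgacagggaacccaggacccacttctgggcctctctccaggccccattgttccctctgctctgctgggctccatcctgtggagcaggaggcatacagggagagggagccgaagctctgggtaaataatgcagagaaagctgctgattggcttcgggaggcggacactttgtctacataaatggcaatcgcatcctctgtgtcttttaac

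The cyclic AMP response element began 45 bases before the start in Th and 4 bases before it in Slc18a2, and it was found in 1.79% of the 32851 promoter windows of 300 bases in the table. Th also held an AP-1 match 210 bases before its start, and the first Ddc start held one at 129 bases, against 7.81% of all windows. The first Ddc start held the NR4A element at 73 bases (1.51% of windows) and a TATA match at 68 bases (13.6% of windows), and these matches overlap each other in the run in capitals. A TATA match was also present in Nr4a2 at 164 bases and in Gch1 at 188 bases. The table held 8 promoters for 7 of the 8 members. These matches describe letters only, and binding was not measured here.

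The Sfpq probe sets went with the genotype labels of the homozygotes. The Sfpq level was 8.94, 9.27 and 8.74 in Sfpq-/- embryos, 10.53, 10.15 and 10.09 in Sfpq+/- embryos, and 10.33, 10.19 and 9.88 in controls. The Sfpq+/- and control arrays overlapped. Across all genes, 12.1% passed an adjusted p of 0.05 in limma in Sfpq-/- against control, 5.98% higher and 6.12% lower, and 0% passed in Sfpq+/- against control, where 715 genes had an unadjusted p under 0.05. The median log2 difference of all genes was 0.027 in Sfpq-/- minus control.

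Th, whose enzyme sets the rate of catecholamine synthesis, had gene levels of 10.49, 10.29 and 10.58 in Sfpq-/- embryos, 7.69, 7.34 and 7.83 in Sfpq+/- embryos, and 8.37, 7.80 and 7.64 in controls, on the log2 scale. Every Sfpq-/- array lay above every other array, and the Sfpq+/- and control arrays overlapped. The mean was 10.45 ± 0.15 in Sfpq-/- embryos, 7.62 ± 0.25 in Sfpq+/- embryos and 7.94 ± 0.39 in controls (SD, n = 3 each). The Sfpq-/- minus control difference was 2.51 on the log2 scale (SE 0.18, 95% interval 2.11 to 2.91), or 5.70-fold higher, and it was rank 3 of 16854 genes by size among higher differences. Against Sfpq+/- embryos the difference was 2.83, or 7.12-fold higher. Because Th was selected on this readout, these values describe it and no test is given. In bulk tissue, more cells that contain Th RNA and more Th RNA per cell cannot be told apart.

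**Figure D1:**
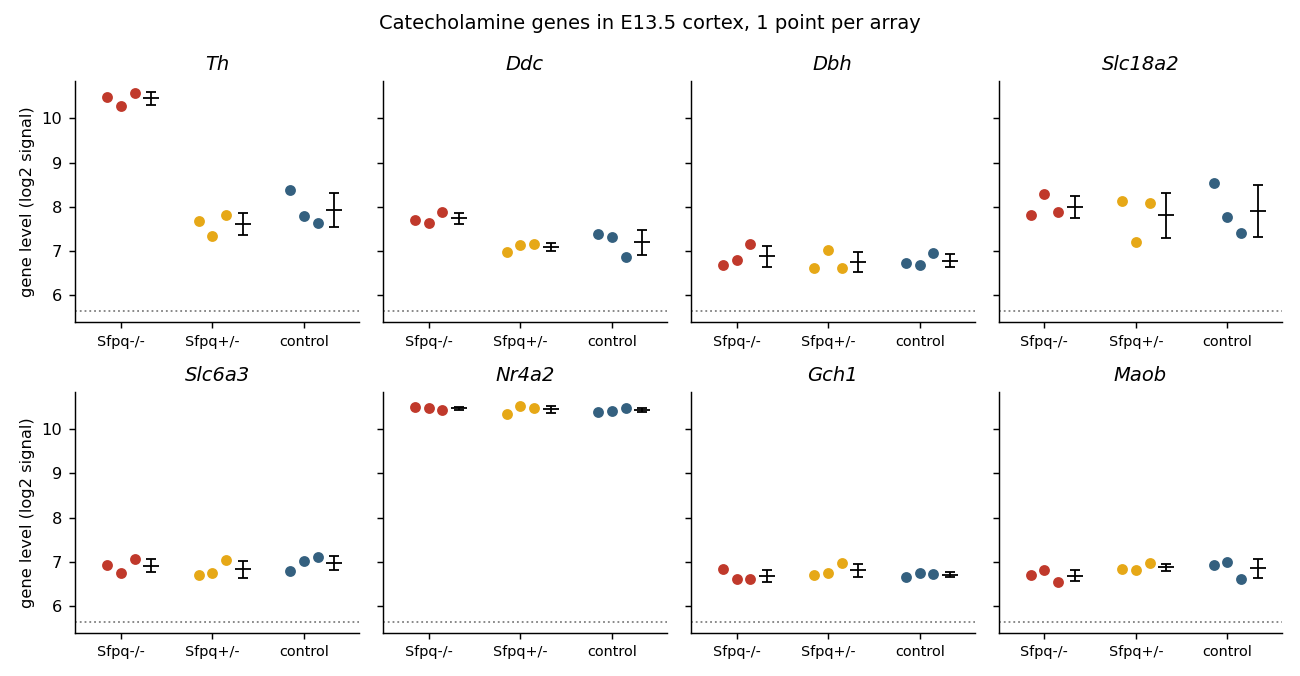
Gene levels (log2) of the 8 genes on each array, with Sfpq-/-, Sfpq+/- and control embryos from left to right in each panel, points for the 3 arrays of a group, a bar for its mean ± SD and a dotted line at the limit of 5.64 for kept probe sets. The Th points of Sfpq-/- embryos lie between 10.29 and 10.58, above all other arrays, and those of Ddc lie between 7.63 and 7.88, while the groups overlap for the other 6 genes.

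Ddc, which makes dopamine from L-DOPA and serotonin from its precursor, was the other member whose Sfpq-/- arrays all lay above the rest. Its level was 7.71, 7.63 and 7.88 in Sfpq-/- embryos, 6.98, 7.14 and 7.16 in Sfpq+/- embryos, and 7.39, 7.32 and 6.88 in controls. The lowest Sfpq-/- array was thus above the highest control, while Sfpq+/- and control arrays overlapped. The mean was 7.74 ± 0.13 in Sfpq-/- embryos, 7.10 ± 0.10 in Sfpq+/- embryos and 7.20 ± 0.28 in controls (SD, n = 3 each). The Sfpq-/- minus control difference was 0.55 (SE 0.13, 95% interval 0.26 to 0.83), or 1.46-fold higher, at rank 311 of 16854, and Sfpq-/- exceeded Sfpq+/- by 0.65.

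Because Sfpq-/- against control chose the members, no test is given for any of the 8 in it. Th and Ddc were the 2 members with every Sfpq-/- array above every control array, which held for 16.1% of genes. The same 2 had every Sfpq-/- array above all 6 other arrays, which held for 9.52% of genes. Since the same contrast chose the members, nothing is read from these counts. The median difference over the 8 members was 0.07 in Sfpq-/- minus control and 0.11 in Sfpq-/- minus Sfpq+/-.

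Dbh, the enzyme that makes noradrenaline, stood at 6.70, 6.80 and 7.16 in Sfpq-/- embryos, 6.62, 7.02 and 6.63 in Sfpq+/- embryos, and 6.73, 6.69 and 6.95 in controls. The 3 groups overlapped. The Sfpq-/- minus control difference was 0.10 (95% interval -0.22 to 0.41), so the interval contains both a lower and a higher level.

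Gch1, the enzyme that starts tetrahydrobiopterin synthesis, had levels of 6.84, 6.61 and 6.61 in Sfpq-/- embryos, 6.70, 6.74 and 6.97 in Sfpq+/- embryos, and 6.66, 6.76 and 6.72 in controls. These groups also overlapped, with a Sfpq-/- minus control difference of -0.02 (95% interval -0.24 to 0.19).

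Slc18a2 encodes the vesicular monoamine transporter that loads dopamine, noradrenaline and serotonin into vesicles. It was the member with the widest control spread, at 7.82, 8.29 and 7.89 in Sfpq-/- embryos, 8.13, 7.22 and 8.08 in Sfpq+/- embryos, and 8.55, 7.77 and 7.41 in controls. Control 1 was the highest of all 9 arrays, and the Sfpq-/- arrays fell inside the control range. The Sfpq-/- minus control difference of 0.09 had a 95% interval of -0.56 to 0.74. Without control 1 the difference was 0.41, without control 3 it was -0.16, and without array 2 of the Sfpq-/- group it was -0.057, so leaving out 1 array could turn its sign.

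The array order of Slc18a2 was shared by its probe sets. Control 1 was the highest array in 17 of 18 kept probe sets, and array 2 of the Sfpq+/- group was the lowest of its group in 18. The level moved with markers of the ganglionic eminence and olfactory bulb, whose 10 measured genes averaged 8.99, 8.88 and 8.92 in Sfpq-/- embryos, 8.93, 8.62 and 8.81 in Sfpq+/- embryos, and 9.33, 8.81 and 8.50 in controls. Over the 9 arrays Pearson's r was 0.84 with that mean, 0.88 with Gad2, a GABA-synthesising enzyme, and 0.88 with Dlx2 and 0.72 with Dlx5, transcription factors of the ganglionic eminence. The points share array and dissection, and the part of these markers in the Slc18a2 level was not tested.

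Slc6a3, the transporter that returns released dopamine to the neuron, had levels of 6.94, 6.75 and 7.06 in Sfpq-/- embryos, 6.70, 6.74 and 7.05 in Sfpq+/- embryos, and 6.80, 7.01 and 7.11 in controls. The groups overlapped and the Sfpq-/- minus control difference was -0.06 (95% interval -0.32 to 0.21).

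Maob, a mitochondrial enzyme that oxidises monoamines, had levels of 6.70, 6.82 and 6.56 in Sfpq-/- embryos, 6.85, 6.81 and 6.97 in Sfpq+/- embryos, and 6.94, 6.999 and 6.62 in controls. Its Sfpq-/- minus control difference of -0.16 (95% interval -0.40 to 0.08) was the lowest of the 8, and the arrays overlapped. Maob is X-linked and the sexes were unequal across groups by Xist, the RNA of the inactive X, which was above 11 on 1 Sfpq-/- array, no Sfpq+/- array and 2 control arrays. The part of sex in the Maob values was not tested.

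Nr4a2, also called Nurr1, is a nuclear receptor that midbrain dopamine neurons need, and it also marks deep-layer neurons of the cortex. It gave the tightest values of the group, at 10.49, 10.49 and 10.43 in Sfpq-/- embryos, 10.35, 10.52 and 10.47 in Sfpq+/- embryos, and 10.39, 10.41 and 10.48 in controls. The groups overlapped, and the Sfpq-/- minus control difference was 0.04 (SE 0.07, 95% interval -0.12 to 0.20). This interval leaves out a difference of the size seen for Ddc.

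In Sfpq+/- against control, the contrast that did not choose the members, 0 of 8 passed, beside 0% of all genes. Th differed by -0.32 (SE 0.18, 95% interval -0.72 to 0.08), with a limma adjusted p of 0.886 and an unadjusted p of 0.105. Ddc differed by -0.10 with an adjusted p of 0.896 in limma. The adjusted p was 0.968 for Dbh, 0.949 for Slc18a2, 0.886 for Slc6a3, 0.966 for Nr4a2, 0.888 for Gch1 and 0.967 for Maob, and their differences lay between -0.14 and 0.09. For none of the 8 did the arrays of the groups separate.

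**Figure D2:**
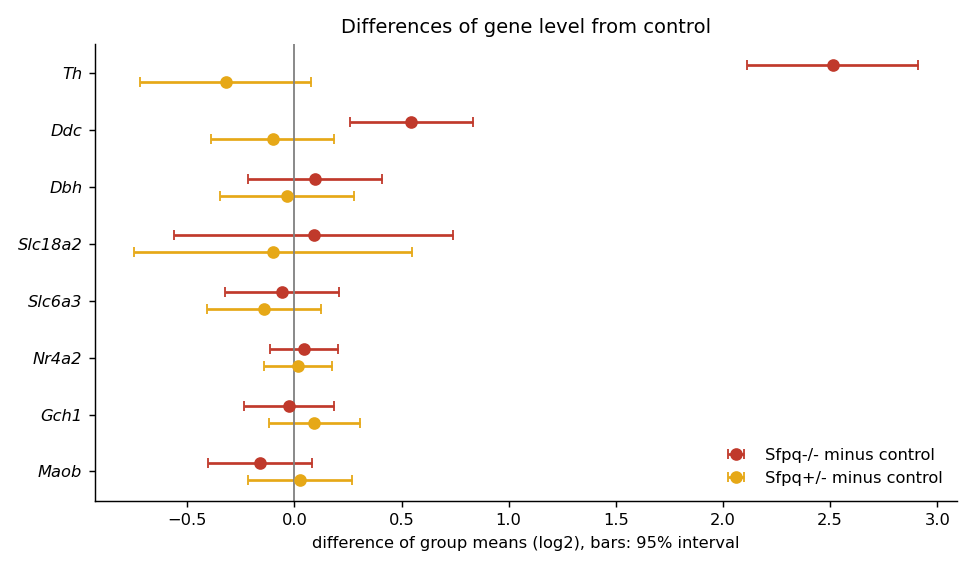
Log2 difference in gene level for each of the 8 genes, in Sfpq-/- minus control and Sfpq+/- minus control, which share the control arrays, with bars for the 95% interval. Th stands at 2.51 and Ddc at 0.55 in Sfpq-/- minus control, and all 8 intervals of Sfpq+/- minus control contain 0.

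The 15 Th probe sets, all kept, did not differ to the same extent. All 15 had a higher mean in Sfpq-/- embryos than in controls, by 0.16 to 3.40 on the log2 scale with a median of 2.82, and in 14 every Sfpq-/- array lay above all other arrays. These counts describe the contrast that chose Th. In 14 of the 15 the Sfpq+/- mean was below the control mean.

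The largest difference was in probe set 5265968, at 11.18, 10.91 and 11.29 in Sfpq-/- embryos, 7.58, 6.52 and 7.63 in Sfpq+/- embryos, and 8.35, 7.68 and 7.13 in controls. The dimmest, 4668218, was at 7.44, 7.02 and 7.41 in Sfpq-/- embryos and 5.85, 5.02 and 5.84 in controls. In both the Sfpq-/- arrays lay apart from the controls, which describes the contrast that chose Th. The mean of 4668218 was 5.28 in Sfpq+/- embryos and 5.57 in controls, both under the limit of 5.64. It was kept only through its Sfpq-/- arrays, so its separation adds no support.

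The brightest Th probe set, 4409104, behaved otherwise. It read 12.11, 11.88 and 11.18 in Sfpq-/- embryos, 11.80, 11.80 and 11.91 in Sfpq+/- embryos, and 12.10, 11.76 and 10.83 in controls, so its groups overlapped. Probe set 4767272 had the next smallest difference, 0.35, with 9.09, 8.82 and 9.28 in Sfpq-/- embryos, 8.39, 8.59 and 8.59 in Sfpq+/- embryos, and 8.67, 8.70 and 8.78 in controls. These 2 were singled out after their values were seen. Over the other 13, the mean level was 10.46 ± 0.18 in Sfpq-/- embryos, 7.22 ± 0.29 in Sfpq+/- embryos and 7.60 ± 0.41 in controls (SD, n = 3 each), a 7.26-fold higher level in Sfpq-/- embryos than in controls. The 2 probe sets with small differences therefore lower the Th difference of the gene mean. What sequence they probe was not analysed here.

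**Figure D3:**
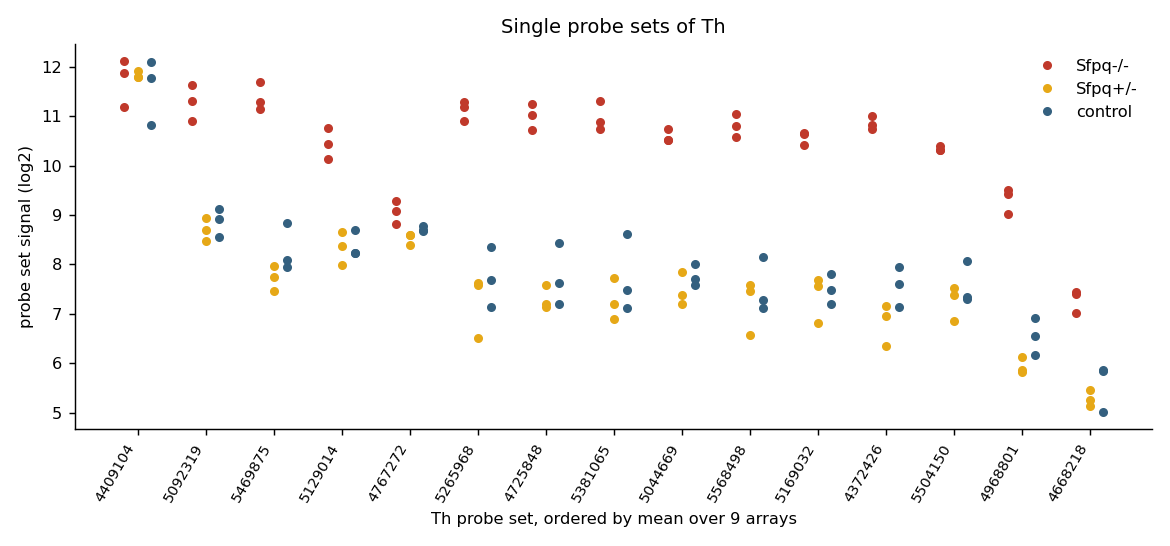
Log2 signal of each of the 15 Th probe sets, ordered by mean over the 9 arrays, with 1 point per array in Sfpq-/-, Sfpq+/- and control embryos. In 13 probe sets the Sfpq-/- mean exceeds the control mean by 1.72 to 3.40, and in the other 2 by 0.16 and 0.35.

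The Ddc probe sets differed by a smaller and more even amount. All 11 kept ones of 17 had a higher mean in Sfpq-/- embryos than in controls, by 0.24 to 0.81 with a median of 0.57. In 4 of them every Sfpq-/- array was above every control array. The other members were mixed: the Sfpq-/- mean was above the control mean in 4 of 6 kept Dbh probe sets, 12 of 18 for Slc18a2, 5 of 12 for Slc6a3, 9 of 12 for Nr4a2, 2 of 6 for Gch1 and 4 of 15 for Maob. In Sfpq+/- against control no probe set of any member passed in limma, beside 0% of all 628415 kept probe sets.

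Across the 9 arrays the members did not move as 1 block. Pearson's r with Th was 0.92 for Ddc, 0.31 for Slc18a2, 0.24 for Dbh, 0.21 for Nr4a2, 0.07 for Slc6a3, -0.32 for Gch1 and -0.50 for Maob. The 3 Sfpq-/- arrays carry most of the Th range, and all points share the arrays with the selection, so these are descriptions.

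Likeness to Th was ranked without genes whose names are clone numbers. Of the remaining genes, those whose levels followed Th most closely over the 9 arrays were Samd3 (r 0.990), Spon1 (0.989), Cbln4 (0.987), Mab21l2 (0.987), Wdr6 (0.982), Sh3bp4 (0.982), Rem2 (0.982), Kcnh2 (0.982), Shc4 (0.981) and Cpne5 (0.981). The most opposed were Ust (-0.996), Parva (-0.994), Adamts18 (-0.989), Kcnq3 (-0.988) and Samd4 (-0.988). In each of these genes the Sfpq-/- arrays lay apart from all others. With the median of probe sets as the gene level, 2 of the 10 most alike stayed among the 10.

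None of the measured neighbours of Th on chromosome 7 passed the test. The 5 nearest measured protein-coding genes on either side, in the order of GRCm38.p6, were Tnni2, Lsp1, Tnnt3, Igf2 and Ins2 on one side and Tspan32, Cd81, Tssc4, Trpm5 and Kcnq1 on the other. Their Sfpq-/- minus control differences lay between -0.14 and 0.15, and 0 of 10 passed, beside 12.1% of all genes, with a smallest limma adjusted p of 0.421.

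Of the other enzymes, transporters and breakdown genes of catecholamines, 9 of 11 were measured and 0 passed in Sfpq-/- against control in limma, beside 12.1% of all genes, with a median difference of -0.07. The smallest p belonged to Rnls, which encodes renalase (-0.34, adjusted p 0.0782 in limma), and to Pnmt, which makes adrenaline from noradrenaline (0.30, limma adjusted p 0.108). For the cofactor, 6 of 7 genes were measured, with a median of -0.05. Of these 1 rose and 1 fell, beside 5.98% of all genes higher and 6.12% lower.

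Pcbd1, which recycles tetrahydrobiopterin, rose by 0.46 (SE 0.11, limma adjusted p 0.0194), at 9.98, 9.94 and 9.66 in Sfpq-/- embryos, 9.37, 9.28 and 9.46 in Sfpq+/- embryos, and 9.58, 9.38 and 9.24 in controls. Its relative Pcbd2 changed by -0.37 (limma adjusted p 0.0298), at 8.06, 8.06 and 8.04 in Sfpq-/- embryos, 8.18, 8.31 and 8.15 in Sfpq+/- embryos, and 8.50, 8.56 and 8.20 in controls. Both calls were lost in most fits that left out 1 array, 4 of 6 for Pcbd1 and 5 of 6 for Pcbd2. The synthesis and regeneration genes Pts (-0.26), Spr (-0.08), Qdpr (-0.03) and the Gch1 regulator Gchfr (-0.03) did not pass.

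The other hydroxylases that use the same cofactor did not pass either. Of the enzymes that start serotonin synthesis, Tph1 differed by 0.24 in Sfpq-/- minus control (limma adjusted p 0.219) and Tph2 by -0.15 (limma adjusted p 0.511). The serotonin transporter Slc6a4 differed by -0.08, with a limma adjusted p of 0.657.

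Of the dopamine and adrenergic receptors, 7 of 14 were measured, and in Sfpq-/- against control 1 rose and 1 fell, beside 5.98% and 6.12% of all genes. Drd2, an inhibitory dopamine receptor, rose by 0.62 (SE 0.13, limma adjusted p 0.00903), with levels of 7.84, 7.64 and 8.10 in Sfpq-/- embryos, 7.36, 7.08 and 7.05 in Sfpq+/- embryos, and 7.40, 7.09 and 7.22 in controls. Drd1, a stimulatory one, changed by -0.63 (SE 0.12, limma adjusted p 0.00494), with 6.42, 6.35 and 6.59 in Sfpq-/- embryos, 7.01, 7.39 and 6.92 in Sfpq+/- embryos, and 6.99, 7.14 and 7.11 in controls. In both genes the Sfpq-/- arrays lay apart from all other arrays. With the stricter filter on dim probe sets Drd2 differed by 0.20 (limma adjusted p 0.292), and Drd1 did not pass with no filter (limma adjusted p 0.0899) or when a gene was the median of its probe sets (limma adjusted p 0.0573). The other 5, Drd3, Drd4, Drd5, Adra1b and Adra2c, differed by -0.06 to 0.08 and did not pass.

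The 14 NR4A factors and other regulators of Th transcription were all measured. In Sfpq-/- embryos 0 rose and 3 fell, beside 5.98% of all genes higher and 6.12% lower. Meis2, a homeodomain factor of striatal and olfactory bulb neurons, fell by 0.91 (limma adjusted p 3.66e-05), with 10.26, 10.44 and 10.28 in Sfpq-/- embryos, 11.41, 11.27 and 11.26 in Sfpq+/- embryos, and 11.32, 11.15 and 11.22 in controls. Nr4a3, a relative of Nr4a2, changed by -0.44 (limma adjusted p 0.0218), and Jun, a subunit of AP-1, by -0.30 (limma adjusted p 0.0295). The Nr4a3 call was lost in 3 and the Jun call in 4 of 6 fits that left out 1 array. Creb1, which binds the cyclic AMP response element, differed by -0.14, Nr4a1 by 0.09 and Rest by 0.03, and none passed.

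**Figure D4:**
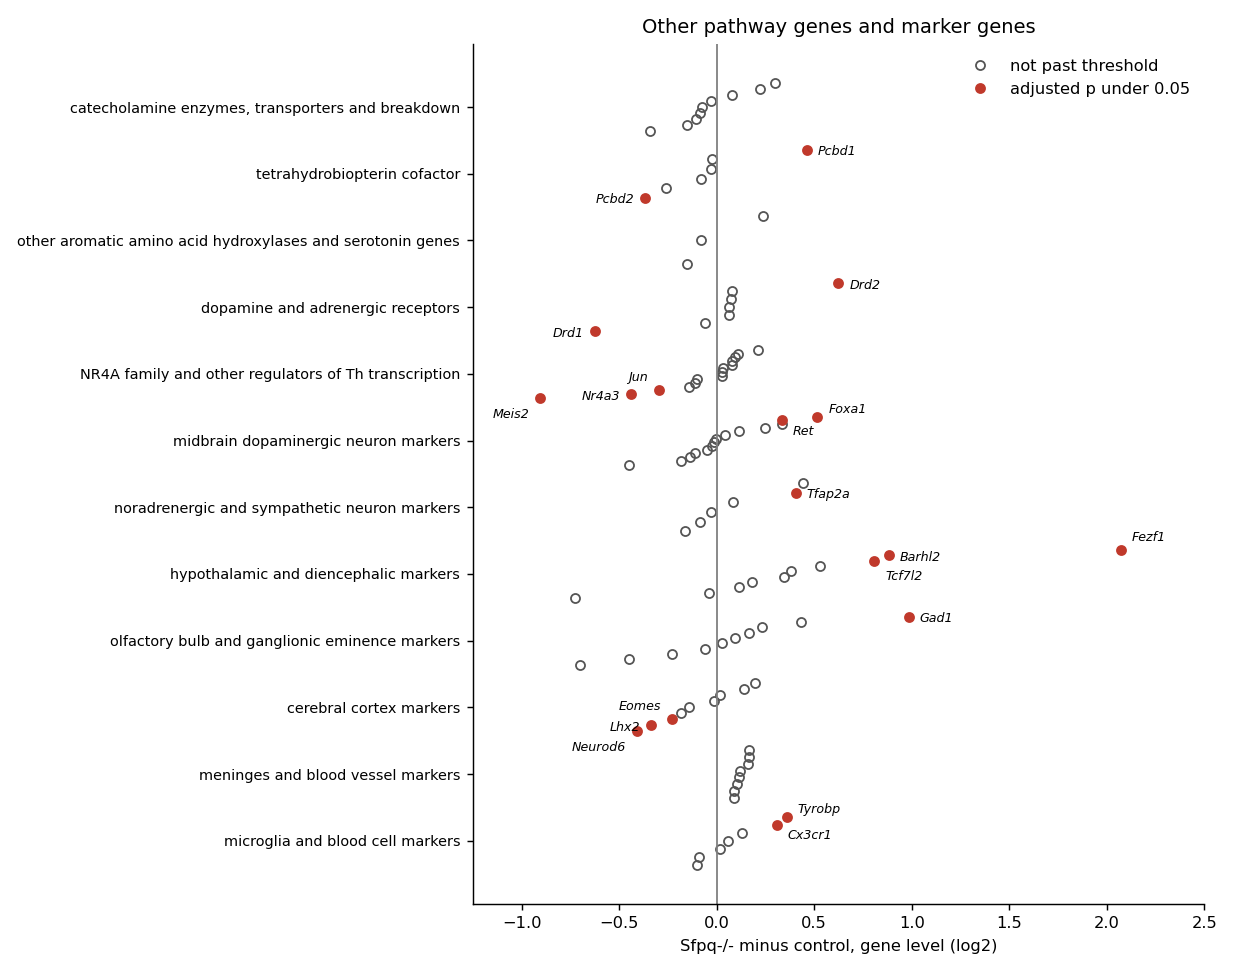
Sfpq-/- minus control difference in gene level (log2) of each measured gene in 12 lists of related pathway genes and cell markers, with filled points for an adjusted p under 0.05. The 8 catecholamine genes themselves are not drawn, and Fezf1 at 2.07 and Meis2 at -0.91 are the ends of the range.

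Markers of regions and cells that contain catecholamine neurons, or that border the cortex, were set beside Th. Only bright probe sets give a level, so a measured marker cannot lie near 0, and the lowest level of the 64 measured marker genes on any array was 5.87. The 10 hypothalamic and diencephalic markers averaged 8.33, 8.20 and 8.46 in Sfpq-/- embryos, 7.49, 7.95 and 7.88 in Sfpq+/- embryos, and 7.98, 7.92 and 7.73 in controls, so the Sfpq-/- arrays lay above all others. The summed level ran from 82.0 to 84.6 in Sfpq-/- embryos, 74.9 to 79.5 in Sfpq+/- embryos and 77.3 to 79.8 in controls. Fezf1, Barhl2 and Tcf7l2 had the largest differences in the list, so the mean and the sum do not describe every marker in it. The array order of the hypothalamic and diencephalic mean was that of Th within the Sfpq-/- group and within controls, but not within the Sfpq+/- group. The olfactory bulb and ganglionic eminence mean shared the Th order within controls too (9.33, 8.81 and 8.50), but not within the other groups. Pearson's r of Th with the hypothalamic and diencephalic mean was 0.86 over the 9 arrays, where the Sfpq-/- arrays carry most of the Th range.

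In that list 3 of 10 rose and 0 fell, with a median of 0.36, beside 5.98% of all genes higher and 6.12% lower. Fezf1, a transcription factor of the early forebrain, rose by 2.07 (limma adjusted p 0.00272), Barhl2, a homeodomain factor of the diencephalon, by 0.88 (limma adjusted p 2e-05) and Tcf7l2, a factor of Wnt signalling strong in the thalamus, by 0.81 (limma adjusted p 0.000183). The hypothalamic factors Otp (0.34), Sim1 (0.53), Nkx2-1 (-0.73), Rax (0.12), Six3 (0.18) and Six6 (-0.04) did not pass, nor did Gbx2 (0.38). In Sim1 and Gbx2 every Sfpq-/- array lay above every control array, which held for 16.1% of all genes. The part of hypothalamic and diencephalic cells in the Th level was not tested.

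Markers of midbrain dopamine neurons had a median of -0.01, and 2 of 14 rose and 0 fell, beside 5.98% of all genes higher and 6.12% lower. Foxa1, a forkhead factor of midbrain progenitors, rose by 0.52 (limma adjusted p 0.0298) and the receptor gene Ret by 0.34 (limma adjusted p 0.0497), and leaving out 1 array ended these calls in 4 and 6 of 6 fits. With the stricter filter on dim probe sets Foxa1 differed by 0.15 (limma adjusted p 0.309) and Ret by 0.12 (limma adjusted p 0.51). No other marker of this list passed. Otx2 (0.33), Msx1 (0.25), Lmx1b (0.12) and Wnt1 (0.04) were higher. In Otx2 and Msx1 every Sfpq-/- array lay above every control array, which held for 16.1% of all genes. Pitx3 (-0.01), Lmx1a (-0.18), En1 (-0.14), Foxa2 (-0.05), En2 (-0.01), Aldh1a1 (-0.11), Kcnj6 (-0.02) and Slc10a4 (-0.45) were lower. The summed level of the 14 was 106.0 to 107.6 in Sfpq-/- embryos, 103.4 to 106.9 in Sfpq+/- embryos and 105.7 to 106.9 in controls, so the groups overlapped.

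Among noradrenergic and sympathetic markers, 6 of 8 measured, 1 rose and 0 fell, beside 5.98% of all genes higher and 6.12% lower. Tfap2a, a neural crest factor, rose by 0.41 (limma adjusted p 0.00332; 0.0542 with no filter on dim probe sets), and Phox2a differed by -0.08 and did not pass. The summed level of the 6 was 45.2 to 45.5 in Sfpq-/- embryos, 44.2 to 44.7 in Sfpq+/- embryos and 44.1 to 45.0 in controls. The Sfpq-/- arrays thus lay above the rest, with the largest differences in Tfap2a and Tfap2b. Tfap2b (0.44) and Gata2 (0.08) were higher and did not pass. Hand2 (-0.03) and Gata3 (-0.16) were lower and did not pass. Of 10 olfactory bulb and ganglionic eminence markers 1 rose and 0 fell, beside 5.98% of all genes higher and 6.12% lower. Their median was 0.06. Gad1, a GABA-synthesising enzyme, rose by 0.98 (limma adjusted p 0.0102). Sp8 (0.43), Gad2 (0.23), Sall3 (0.17), Dlx5 (0.09) and Dlx2 (0.03) were higher and did not pass. Isl1 (-0.70), Lhx6 (-0.45), Gsx2 (-0.23) and Dlx1 (-0.06) were lower and did not pass.

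Of 9 measured cortical markers, 0 rose and 3 fell in Sfpq-/- embryos, beside 5.98% of all genes higher and 6.12% lower. Lhx2, a factor of cortical progenitors, fell by 0.34 (limma adjusted p 0.007), Neurod6, of young excitatory neurons, by 0.41 (limma adjusted p 0.00848) and Eomes, of intermediate progenitors, by 0.23 (limma adjusted p 0.0489). Emx2 (0.19), Tbr1 (0.14) and Pax6 (0.01) were higher and did not pass. Emx1 (-0.18), Neurod2 (-0.14) and Bcl11b (-0.01) were lower and did not pass. In Emx2 and Tbr1 every Sfpq-/- array lay above every control array, which held for 16.1% of all genes, and in Emx1 every one lay below. The summed level of the 9 was 91.8 to 92.3 in Sfpq-/- embryos, 93.5 to 94.4 in Sfpq+/- embryos and 92.8 to 93.4 in controls, lower on every Sfpq-/- array. The Eomes call was lost in 5 of 6 fits that left out 1 array and in 4 of 8 other alternatives, and with the median of probe sets the limma adjusted p was 0.0625 for Lhx2 and 0.0945 for Neurod6.

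Of 8 meninges and vessel markers 0 passed, beside 12.1% of all genes. The smallest p belonged to Foxc1 (0.16, limma adjusted p 0.317) and Foxd1 (0.17, limma adjusted p 0.388). Of 7 microglia and blood markers 2 rose and 0 fell, with a median of 0.06, beside 5.98% of all genes higher and 6.12% lower. Tyrobp rose by 0.36 (limma adjusted p 0.0157) and Cx3cr1 by 0.31 (limma adjusted p 0.0461). These calls ended in 3 and 6 of 6 fits without 1 array. Csf1r (0.13), Aif1 (0.06) and Hbb-y (0.02) were higher and did not pass. Hba-x (-0.09) and Alas2 (-0.10) were lower and did not pass. In Sfpq+/- against control, 0 genes of any of the 12 lists passed, beside 0% of all genes.

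**Figure D5:**
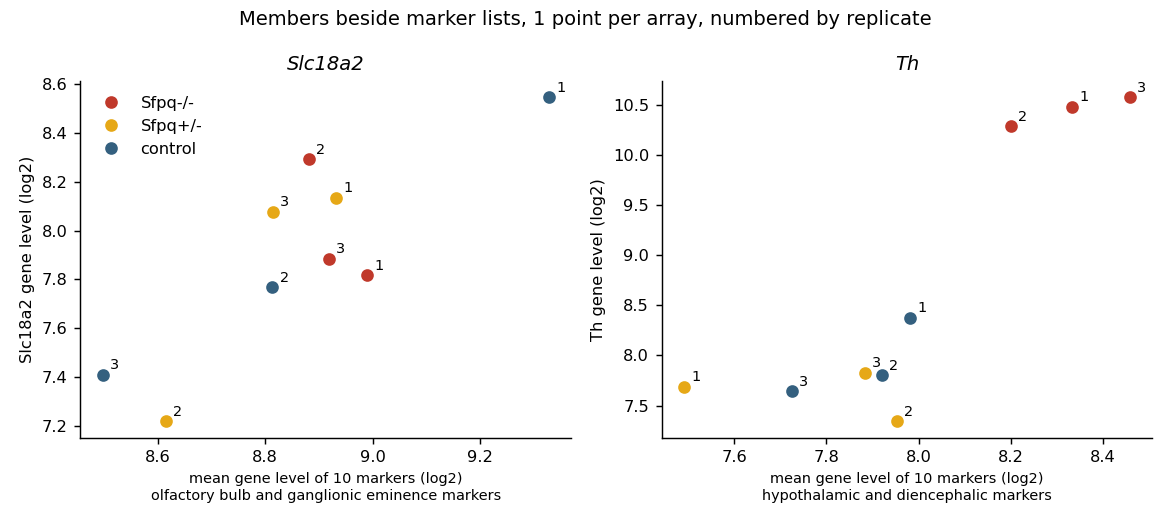
Left, Slc18a2 gene level against the mean of 10 olfactory bulb and ganglionic eminence markers, and right, Th gene level against the mean of 10 hypothalamic and diencephalic markers (all log2), with 1 point per array numbered by replicate. Control 1 is at the upper end on the left, and the 3 Sfpq-/- arrays stand apart in Th on the right.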

How the data were processed

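Total RNA was extracted from frozen cortical tissue per the labels' protocols, amplified and hybridised to exon arrays. Each deposited value is the log2 signal of 1 probe set on 1 array. Per the submitters' processing notes the program was Affymetrix Expression Console, version 1.2.0.20, while the series' design text names the Exon Array Computational Tool. How background was corrected and arrays were normalized is not stated in the labels. The extraction notes list Sfpq+/- in the place where Sfpq-/- would stand, so groups were taken from titles and genotypes. Array medians lay between 5.65 and 5.70, no pair of arrays was identical, and correlations between arrays were 0.964 to 0.980. The number of arrays limits the precision.

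Of 1256831 probe sets, 318760 had 1 gene symbol, 6684 several and 931387 none. Old symbols were updated through RefSeq (3993 symbols). The 628415 probe sets with a mean above 5.64 were kept, a gene needed at least 3, and 16854 genes resulted. limma 3.58.1 in R 4.3.3 was fitted to 3 group means over 9 arrays, with Benjamini-Hochberg adjustment over all genes and a threshold of 0.05, and it was tested on simulated data. Sfpq-/- against control and Sfpq-/- against Sfpq+/- share the Sfpq-/- arrays. The 8 members and all gene lists were chosen with earlier results of these data known, and in each list the genes past the threshold are named, or else the 2 with the smallest p, with a few others added after their values were seen. All measured cofactor and hydroxylase genes are named. Alternatives were the probe set filter, the probe set summary, the scaling, array weights, a replicate block, the arrays fitted and leaving out each array.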

Additional observations from a re-analysis of the deposited data

How the results depend on the processing

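Th kept its direction in Sfpq-/- embryos under every alternative run. Its difference from control was 3.04 with the median of probe sets and 2.36 to 2.73 when 1 array was left out, and from Sfpq+/- 3.43 and 2.69 to 2.94. Ddc was higher by 0.39 to 0.64 without 1 array. Th in Sfpq+/- minus control was -0.47 to -0.10 without 1 array. Genes called in Sfpq-/- against control numbered 4609 with array weights (2755 higher, 1854 lower) and 1311 to 2453 without 1 array, the lowest without Sfpq-/- 1 and with 1343 without control 2. Higher calls were 665 with the median of probe sets, 668 with only the groups compared and 543 to 1477 without 1 array, with 612 lacking control 3 and 574 lacking control 2. In Sfpq+/- against control, calls were 1 with the stricter filter and 0 to 1 without 1 array. Of the 10 genes most like Th, 2 stayed with the median, 5 with quantile normalization and 4 to 8 without 1 array.

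Some differences of members near 0 changed sign. In Sfpq+/- minus control, Dbh was 0.20 with the median and 0.066 with array weights, Nr4a2 -0.016 with the median and -0.00093 with quantile normalization, Gch1 -0.0017 with no filter, and Maob -0.051 with the stricter filter and -0.068 with array weights. Without 1 array, Dbh ran from -0.16 to 0.048, Slc18a2 from -0.35 to 0.22, Nr4a2 from -0.018 to 0.067 and Maob from -0.090 to 0.10. In Sfpq-/- minus control, Nr4a2 was -0.066 with the median, Gch1 was 0.15 with no filter and 0.055 with array weights, and without 1 array Dbh reached -0.041, Slc18a2 -0.16, Slc6a3 0.026 and Gch1 0.016. In Sfpq-/- minus Sfpq+/-, the median gave -0.060 for Dbh, -0.050 for Nr4a2 and -0.048 for Slc6a3, array weights gave -0.042 for Dbh and no filter 0.15 for Gch1, while without 1 array Dbh reached -0.0079, Nr4a2 -0.023 and Slc18a2 -0.11. The causes were not tested. Dbh and Gch1 had no level under the stricter filter.

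Whether samples of the same replicate number belong together could not be decided from these values. Deviations of same-numbered Sfpq-/- and control samples correlated at 0.28, 0.0057 and 0.57. Those of Sfpq+/- and control samples correlated at 0.25, 0.050 and 0.31, and those of Sfpq-/- and Sfpq+/- samples at -0.055, 0.040 and 0.30. Differently numbered samples ranged from -0.53 to 0.36, and Sfpq-/- 2 correlated better with control 1 (0.36) than with control 2. With the replicate number as a block, 2469 genes were called in Sfpq-/- against control, beside 2040 without it. In Sfpq+/- against control 0 were called, and the Eomes call in Sfpq-/- against control ended (limma adjusted p 0.0534). In this balanced design a block leaves group differences as they are. Signal over background was not measured here.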
